A study of Mus musculus with 8 samples.

Results

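The 35 genes described here carry the names of the nuclear subunits of respiratory complex I. They were chosen as every symbol of the deposited table made of Nduf, 1 of the letters a, b, c, s or v, and a number. That rule matched 36 of the 54427 genes listed, and 35 of them are described. Assembly factors, whose symbols begin with Ndufaf, were left out. All 35 were above 0 in each of the 8 libraries, and all 35 passed the filter on low values (a mean of at least 1 CPM) in both comparisons.

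RNA was sequenced from primary acinar cells, the enzyme-secreting cells of the exocrine pancreas, freshly isolated with collagenase from wild-type mice. In both groups injury was induced with 1 µM cholecystokinin octapeptide, a secretagogue, for 6 h. The 4 AP_OCA libraries add obeticholic acid (OCA), which activates the bile acid receptor FXR, at 2.5 µM; that the 4 AP libraries had none rests on their titles, because the treatment text is the same for all 8. The labels give no age or sex and do not say whether replicates came from separate animals or preparations, so p-values measure the spread between these samples, which may be technical.

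Complex I takes electrons from NADH in the mitochondrial matrix, passes them along iron-sulfur clusters to ubiquinone and pumps protons across the inner membrane. Its core subunits are shared with bacteria: those of the matrix arm are encoded in the nucleus and those of the membrane arm in mitochondrial DNA, and many accessory subunits surround them. Acinar cells draw on mitochondrial ATP for enzyme synthesis, secretion and calcium clearance. Ndufa4 carries a complex I name but is now assigned to complex IV, cytochrome c oxidase, so it is in none of the groups by arm. It stays in the counts, medians and sums over all 35 genes because the symbol rule takes it, and the counts over the 34 others are also given for the 7 libraries.

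Levels are written in CPM, the deposited values taken back from their log2 scale and scaled to 1000000 per library. The libraries had been made to share 1 distribution, so a CPM is a position in that distribution and not a share of reads. Fold changes are AP_OCA over AP as log2(CPM + 1), with the standard error, from limma. Adjusted p-values are Benjamini-Hochberg over all genes tested, with 0.05 as the threshold. AP_OCA replicate 2 was set apart because it stood apart in an earlier report on these same data. The comparison of 7 libraries (4 AP with AP_OCA replicates 1, 3 and 4) therefore comes first, and all 8 libraries follow.

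AP_OCA replicate 2 held 21010 genes above 0, against 15394 to 16640 in the others. Its 10 lymphocyte markers summed to 12676 CPM, against 21.2 to 70.7 CPM in the other 7 libraries, where Cd3e and Cd3g were at 0. Its 10 myeloid markers summed to 1065 CPM against 56.5 to 129 CPM, and its 7 islet markers to 8.95 CPM against 502 to 2132 CPM. The 15 acinar markers summed to 393610 CPM there and to 414536 to 463138 CPM elsewhere, lowest in AP_OCA replicate 4 among the 7. A value of 1 CPM stood for a step of 10 to 15 counts in 7 libraries and of 66 in AP_OCA replicate 2; read totals are not given in the sources used here.

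In the 7 libraries 1 of the 35 genes rose and none fell. Over all 10894 genes tested, 0.854% were higher and 1.59% lower at the same threshold. The gene that rose was Ndufa4. The fold change was above 0 in 35 of 35, against 50.0% of all genes, with a median of 0.71 and a range from 0.16 (Ndufb8) to 1.07 (Ndufa4). The median over all genes was 0.00. At an unadjusted p under 0.05, 26 of 35 were higher, against 11.8% of all genes. In 17 of 35 every AP_OCA library lay above every AP library, against 11.1% of all genes, and in none did every AP_OCA library lie below, against 12.1%. The number that rose ranged from 0 to 17 with each library left out in turn. It was 17 without AP_OCA replicate 1 (3.71% of all genes higher) and 1 without AP_OCA replicate 4 (0.295%). Leaving out any other library gave 0 (0.0183% to 0.0366%). With limma's quality weights per library the number was 20 (7.11% of all genes higher). Over the 34 genes other than Ndufa4 none passed, all 34 fold changes were above 0, 25 were higher at an unadjusted p under 0.05, 16 did not overlap between the groups, and the median was 0.71.

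With all 8 libraries none of the 35 passed, and neither did any of the 11311 genes tested (0%), while with quality weights 16 of the 35 and 4.25% of all genes were higher. The smallest adjusted p among the 35 was 0.260, shared by Ndufa4 and other members. The median fold change was 0.74, and 35 of 35 were above 0, against 49.1% of all genes. At an unadjusted p under 0.05, 23 of 35 were higher, against 7.31% of all genes. In 16 of 35 the groups did not overlap, with AP_OCA higher, against 6.75%. AP_OCA replicate 2 lay above the 7 other libraries in 16 of the 35, against 32.5% of all genes, and below them in none, against 36.9%.

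**Figure D1:**
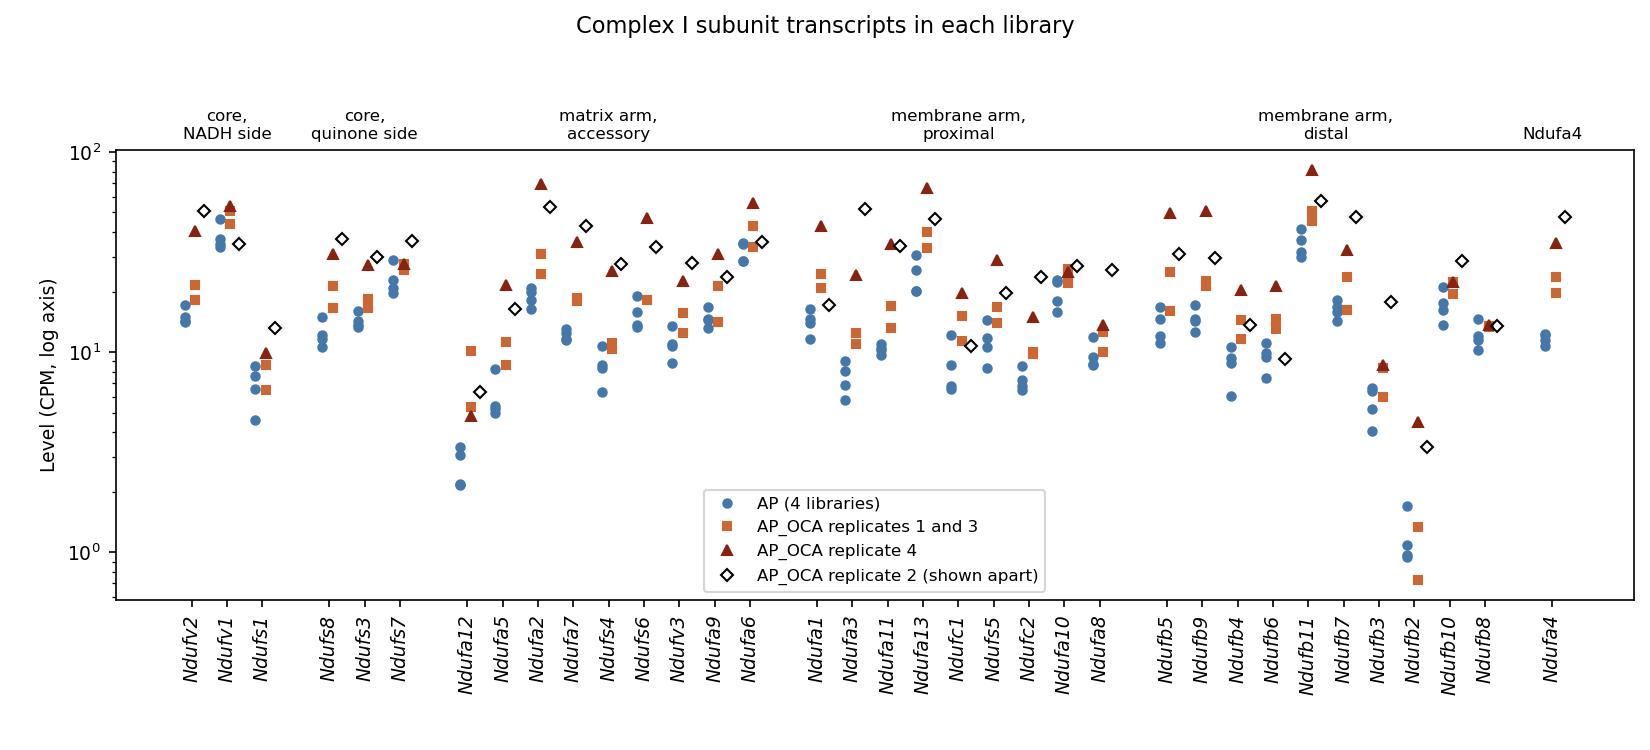
Level of each of the 35 genes (CPM, log axis) in each library, grouped by place in the complex and ordered within a group by the fold change in 7 libraries. AP_OCA replicate 4 (triangles) is the highest of the 7 libraries in 31 of the 35 genes, and AP_OCA replicate 2 (open diamonds) is drawn to the side.

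The AP_OCA libraries did not stand equally far from AP. Taken over the 35 genes, the median log2 difference from the mean of AP was 0.33 in AP_OCA replicate 1, 0.51 in replicate 3, 1.16 in replicate 4 and 1.01 in replicate 2. Among the AP libraries it was -0.13, 0.00, 0.22 and -0.11 in replicates 1 to 4. AP_OCA replicate 4 was the highest of the 7 libraries in 31 of 35 genes, against 26.6% of all genes. Of the 9 marker lists, this library also had the lowest sum of the 7 libraries for acinar cells, lymphocytes (21.2 CPM), endothelium (19.97 CPM) and stellate cells and fibroblasts (108 CPM). It had the highest for neutrophils (64.7 CPM), ducts (371 CPM) and adipocytes and mesothelium (86.98 CPM), and lay between the others for myeloid cells and islets. The AP ranges were 27.1 to 55.1 CPM for neutrophils and 13.1 to 34.1 CPM for adipocytes and mesothelium. The neutrophil sum did not hold marker by marker. Of the 4 neutrophil markers tested, 0 had a fold change above 0 in 7 libraries. Csf3r among them was lower (limma, -1.58 ± 0.26, adjusted p = 0.024). Their median log2 difference from the mean of AP was 0.00 in AP_OCA replicate 4. The 6 ductal markers summed to 336 to 371 CPM in AP_OCA replicates 1, 3 and 4, to 199.9 to 288 CPM in AP and to 26.4 CPM in AP_OCA replicate 2. The part of these values in the fold changes was not tested. In bulk RNA, a change in the number of cells of a type and a change in RNA per cell cannot be told apart. Without AP_OCA replicate 4 the median was 0.40, with 34 of 35 above 0, and Ndufa4 still passed (0.295% of all genes were higher there).

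Added up, the 35 genes came to 447, 501, 565 and 445 CPM in AP replicates 1 to 4. The sum was 622, 706 and 1114 CPM in AP_OCA replicates 1, 3 and 4, and 1024 CPM in AP_OCA replicate 2, of which Ndufa4 gave 10.7 to 47.4 CPM. Every AP_OCA sum lay above every AP sum, and the 2 nearest were 565 and 622 CPM. The means were 489.5 ± 56.4 CPM (SD, n = 4) in AP and 814 ± 263 CPM (SD, n = 3) in AP_OCA.

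Ndufa4, the gene that rose, stood at 12.4, 11.5, 10.7 and 12.2 CPM in AP replicates 1 to 4. AP_OCA replicates 1, 3 and 4 gave 19.9, 23.9 and 35.3 CPM, and AP_OCA replicate 2 gave 47.4 CPM. The 4 AP libraries lay close together, and every AP_OCA library lay above them, with replicate 1 nearest and replicate 2 farthest. Means were 11.7 ± 0.773 CPM (SD, n = 4) in AP and 26.4 ± 7.99 CPM (SD, n = 3) in AP_OCA. This gave a fold change of 1.07 ± 0.21 (adjusted p = 0.028) in 7 libraries and 1.28 ± 0.28 (adjusted p = 0.260) in 8. With each of the 7 libraries left out in turn it ranged from 0.84 to 1.24 and passed in 2 of the 7 fits, those without AP_OCA replicate 1 and without AP_OCA replicate 4. Ndufa4 lies on the minus strand at chr6:11900292-11907497 (mm10), and its transcripts have a median length of 460 nt.

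The NADH-oxidising tip of the matrix arm has 3 core subunits: Ndufv1, which binds NADH and the flavin, and Ndufv2 and Ndufs1, which carry iron-sulfur clusters. Ndufv2 stood at 14.1, 14.3, 17.3 and 15.1 CPM in AP replicates 1 to 4 and at 18.3, 21.8 and 40.3 CPM in AP_OCA replicates 1, 3 and 4, with 51.02 CPM in replicate 2. All AP_OCA libraries lay above all AP libraries, by little in replicate 1 and by much in replicate 4. limma gave it a fold change of 0.70 ± 0.24 (adjusted p = 0.102), and 0.38 without AP_OCA replicate 4.

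Ndufv1 measured 34.6, 36.9, 46.4 and 33.6 CPM in AP and 43.6, 51.1 and 54.03 CPM in AP_OCA, with 34.6 CPM in AP_OCA replicate 2. AP replicate 3 lay above AP_OCA replicate 1, so the groups overlapped, and replicate 2 lay among the AP libraries. The log2 difference came to 0.39 ± 0.18 (adjusted p = 0.192). Ndufs1 gave 7.61, 8.51, 4.61 and 6.55 CPM in AP and 8.60, 6.46 and 9.95 CPM in AP_OCA, with 13.3 CPM in replicate 2, a fold change of 0.26 ± 0.24 (adjusted p = 0.509). AP_OCA replicate 3 lay below 3 of the 4 AP libraries there.

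On the quinone-reducing side of the matrix arm, Ndufs7 carries the last iron-sulfur cluster before the ubiquinone site, Ndufs8 is another iron-sulfur protein and Ndufs3 is a core subunit without a cluster. None of the 3 passed, and 2 were higher at an unadjusted p under 0.05, against 11.8% of all genes. Ndufs8 stood at 10.6, 11.7, 14.99 and 12.1 CPM in AP and at 16.6, 21.3 and 30.9 CPM in AP_OCA, with 37.03 CPM in replicate 2. No AP_OCA library fell within the AP range. It had a fold change of 0.81 ± 0.22 (adjusted p = 0.062).

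Ndufs3 measured 13.7, 14.4, 16.1 and 13.5 CPM in AP and 18.4, 16.6 and 27.4 CPM in AP_OCA, with 29.8 CPM in replicate 2, a fold change of 0.47 ± 0.21 (adjusted p = 0.172). The groups were separate, although AP_OCA replicate 3 exceeded AP replicate 3 by less than 1 CPM. A processed pseudogene, Gm12251, matches 792 nt of it at 98.6% and averaged 1.13 CPM over the 8 libraries, and the sum of both overlapped between the groups.

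Ndufs7 gave 20.9, 22.99, 29.1 and 19.8 CPM in AP and 25.9, 27.6 and 27.7 CPM in AP_OCA, with 36.2 CPM in replicate 2. AP replicate 3 was the highest of the 7 libraries. The fold change was 0.23 ± 0.18 (adjusted p = 0.449), with a 95% interval of -0.17 to 0.63.

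Over the 6 core subunits the median fold change was 0.43. In 3 of 6 the groups did not overlap, with AP_OCA higher, against 11.1% of all genes. The 28 accessory subunits had a median of 0.71, with 13 of 28 not overlapping. Within the matrix arm the medians were 0.39 for the 3 NADH-side core genes, 0.47 for the 3 quinone-side core genes and 0.71 for the 9 accessory genes. The 9 accessory genes of the proximal membrane arm had a median of 0.79 and the 10 of the distal membrane arm 0.60. No difference between these groups was tested. The core transcripts were also longer, with a median of 1179 nt against 674.5 nt for the accessory ones.

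**Figure D2:**
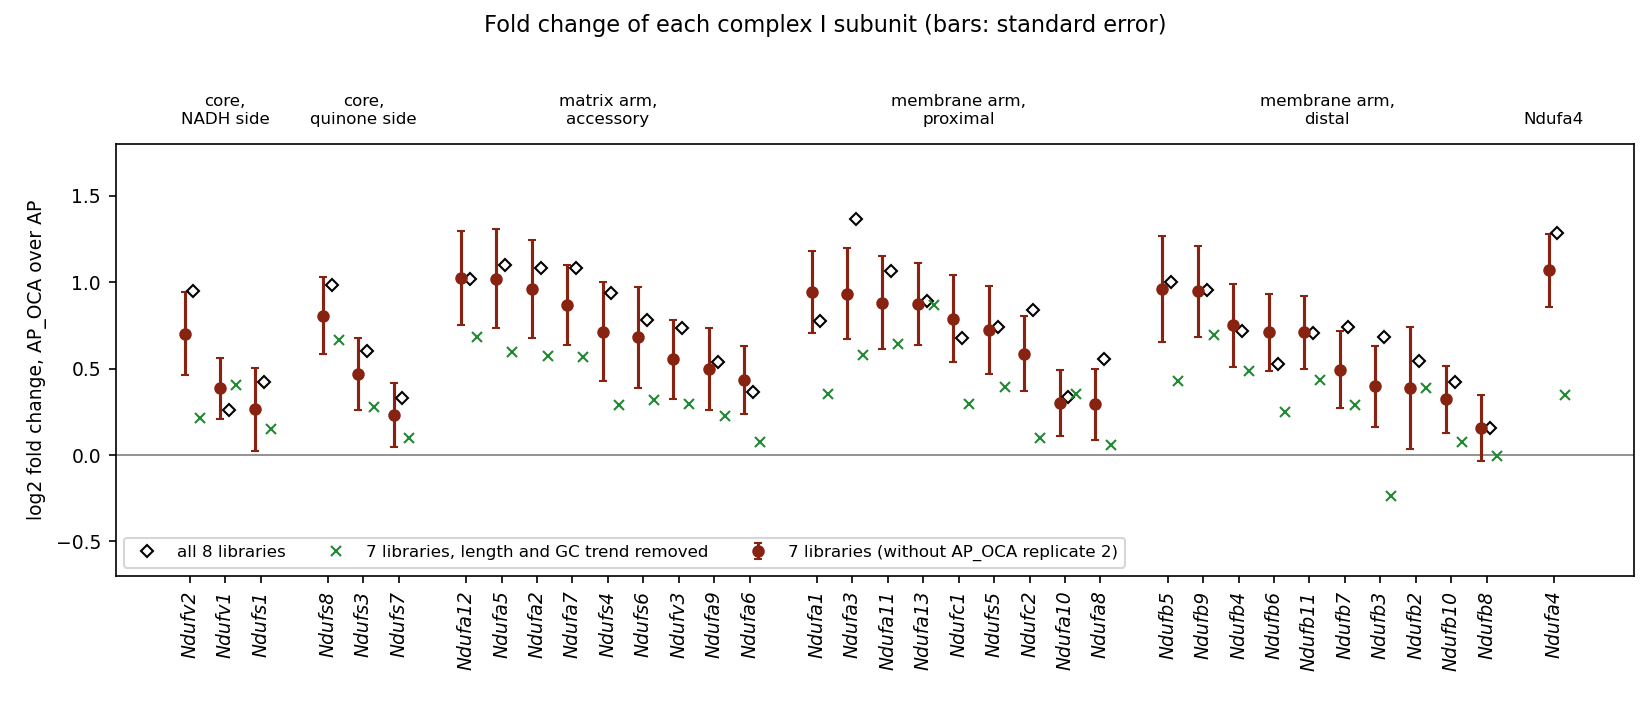
log2 fold change of each gene, AP_OCA over AP, in 7 libraries (filled circles, bars are the standard error), in all 8 libraries (open diamonds) and in 7 libraries after each library's trend on transcript length and GC content was removed (crosses). All 35 filled circles lie above 0, from 0.16 in Ndufb8 to 1.07 in Ndufa4, and 33 of 35 crosses do.

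Of the 9 accessory subunits on the matrix arm none passed. At an unadjusted p under 0.05, 8 were higher, against 11.8% of all genes. In 4 the groups did not overlap, with AP_OCA higher, against 11.1%. Ndufa7, a small accessory subunit, measured 11.7, 12.6, 13.03 and 11.5 CPM in AP and 18.7, 18.1 and 35.6 CPM in AP_OCA, with 42.8 CPM in replicate 2. AP spanned less than 2 CPM, and AP_OCA replicates 1 and 3 stood together above it, well below replicates 4 and 2. limma gave it a fold change of 0.87 ± 0.23 (adjusted p = 0.058), and 0.56 without AP_OCA replicate 4.

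Ndufa5, another small accessory subunit of this arm, gave 5.38, 4.96, 8.27 and 5.20 CPM in AP and 11.3, 8.60 and 21.7 CPM in AP_OCA, with 16.4 CPM in replicate 2. AP replicate 3 stood above the other AP libraries and just under AP_OCA replicate 3. The log2 difference came to 1.02 ± 0.29 (adjusted p = 0.062).

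Ndufa12, which docks where the assembly factor Ndufaf2 sits during assembly, gave 3.06, 2.19, 2.17 and 3.35 CPM in AP and 10.2, 5.36 and 4.82 CPM in AP_OCA, with 6.35 CPM in replicate 2. Here AP_OCA replicate 1, not replicate 4, was the highest, and no AP_OCA library reached down to AP. It had a fold change of 1.03 ± 0.27 (adjusted p = 0.057).

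Its count is uncertain because Gm15920, a processed pseudogene, matches 402 nt of the 1110-nt Ndufa12 transcript at 99.5%, all within the part from position 127 to position 528. The 2 sequences differ by A225G and T504C, counted from 1 at the 5′ end of the Ndufa12 transcript, with the Ndufa12 base first. They are shown because a read from these 402 nt that covers neither position is the same for both genes; the base that differs is in capitals, and the letters are the GENCODE M21 transcripts.
Ndufa12 around position 225: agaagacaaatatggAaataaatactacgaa
Gm15920 at the same place: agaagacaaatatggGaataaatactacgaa
Ndufa12 around position 504: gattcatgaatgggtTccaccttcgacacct
Gm15920 at the same place: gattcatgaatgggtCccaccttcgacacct

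Gm15920 was listed at 4.69, 4.96, 6.35 and 6.23 CPM in AP and at 1.47, 4.58 and 9.69 CPM in AP_OCA, with 4.62 CPM in replicate 2. It was lowest in AP_OCA replicate 1, where Ndufa12 was highest, and highest in AP_OCA replicate 4. Summed, the pair came to 8.25 ± 1.05 CPM (SD, n = 4) in AP and 12.02 ± 2.31 CPM (SD, n = 3) in AP_OCA, a difference of 0.49 on the log2 scale. The sums did not overlap between the groups, also with AP_OCA replicate 2. The copy made up 67.3% of the sum in AP and 43.6% in AP_OCA. How reads that fit both places were counted is not given in the sources used here.

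**Figure D3:**
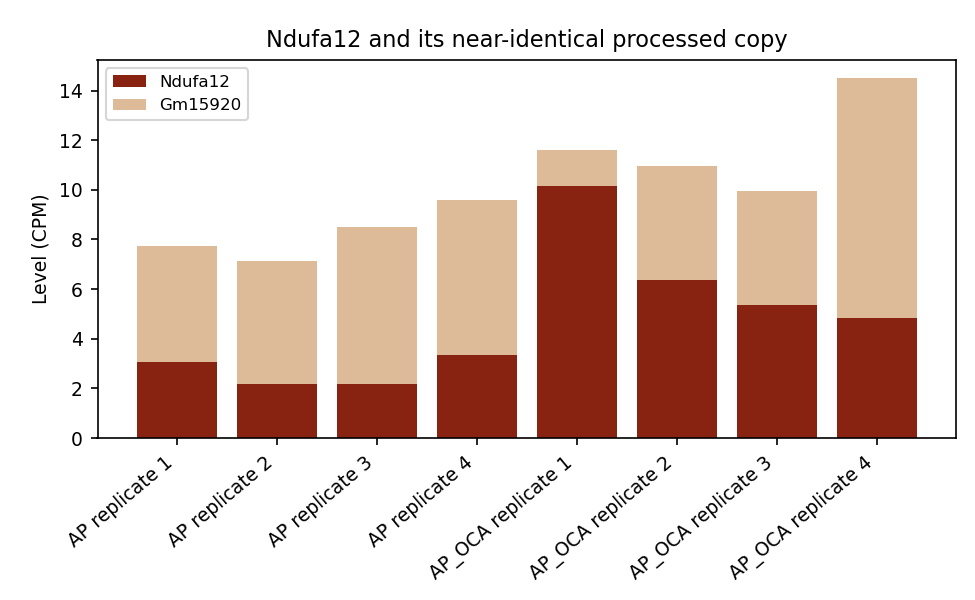
Level of Ndufa12 (dark) and of its near-identical processed copy Gm15920 (light), stacked in CPM for each library. The stacked sum is higher in each AP_OCA library than in any AP library, while the split between the 2 genes moves, with the copy smallest in AP_OCA replicate 1.

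The other 6 accessory subunits of the matrix arm had fold changes from 0.44 in Ndufa6 to 0.96 in Ndufa2. Ndufa6, which helps dock an acyl carrier protein, had the highest AP level per length of all 35 genes, 83.2 CPM per kb. Ndufs4, whose loss causes a severe complex I deficiency, had a fold change of 0.71 ± 0.29 (adjusted p = 0.143), and 0.32 without AP_OCA replicate 4. Ndufs6, which carries a zinc ion, reached 47.1 CPM in AP_OCA replicate 4, against 18.3 CPM in each of replicates 1 and 3 and 13.3 to 19.1 CPM in AP. Among these 6, Ndufa2 was the one whose groups did not overlap, at 16.5 to 20.9 CPM in AP and 24.6 to 69.4 CPM in AP_OCA.

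None of the 9 accessory subunits of the proximal membrane arm passed. At an unadjusted p under 0.05, 7 were higher, against 11.8% of all genes. In 5 the groups did not overlap, with AP_OCA higher, against 11.1%. Ndufa1, a small subunit encoded on the X chromosome, measured 11.7, 16.5, 13.98 and 14.7 CPM in AP and 20.9, 24.7 and 42.9 CPM in AP_OCA, with 17.3 CPM in replicate 2. All AP_OCA libraries lay above AP, but replicate 2 only just, next to AP replicate 2. The fold change was 0.94 ± 0.24 (adjusted p = 0.051), the smallest adjusted p after that of Ndufa4.

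Ndufa13, also known as GRIM-19, gave 20.2, 25.7, 30.7 and 20.3 CPM in AP and 33.3, 40.1 and 66.3 CPM in AP_OCA, with 46.2 CPM in replicate 2. AP replicate 3 came closest to the AP_OCA libraries without reaching them. This gave a fold change of 0.88 ± 0.24 (adjusted p = 0.059). Tssk6 shares 375 nt of exon with it on the opposite strand and stayed under 0.22 CPM in every library. Whether counting used the strand is not given in the sources used here.

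Ndufa3, a small subunit of the same region, stood at 5.80, 8.09, 9.08 and 6.86 CPM in AP and at 10.98, 12.5 and 24.3 CPM in AP_OCA, with 52.2 CPM in replicate 2. On the log2 scale replicate 2 stood farther above AP here than in any other of the 35 genes. limma gave it a fold change of 0.93 ± 0.26 (adjusted p = 0.064). For the other 6 genes of this region it ran from 0.29 in Ndufa8, one of the subunits facing the intermembrane space, to 0.88 in Ndufa11. Ndufa11 lay at 9.73 to 11.01 CPM in AP and 13.2 to 34.7 CPM in AP_OCA. Ndufc2, the other of these 6 without overlap, lay at 6.49 to 8.57 CPM in AP and 9.81 to 14.9 CPM in AP_OCA.

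On the distal membrane arm none of the 10 Ndufb genes passed. At an unadjusted p under 0.05, 6 were higher, against 11.8% of all genes. In 4 the groups did not overlap, with AP_OCA higher, against 11.1%. Ndufb9, an LYR-motif protein like Ndufa6, measured 14.7, 14.4, 17.1 and 12.6 CPM in AP and 22.7, 21.3 and 50.7 CPM in AP_OCA, with 29.7 CPM in replicate 2. AP_OCA replicates 1 and 3 lay a little above AP, and replicate 4 stood far above both. The log2 difference came to 0.95 ± 0.27 (adjusted p = 0.063), and 0.56 without AP_OCA replicate 4.

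Ndufb11, an X-linked subunit, gave 29.9, 36.5, 41.3 and 31.7 CPM in AP and 45.5, 50.6 and 81.04 CPM in AP_OCA, with 56.9 CPM in replicate 2. It was higher in each AP_OCA library than in any AP library, and its level per length in AP, 38.4 CPM per kb, was below only that of Ndufa6. It had a fold change of 0.71 ± 0.21 (adjusted p = 0.073). Ndufb6 stood at 7.45, 11.1, 9.48 and 9.96 CPM in AP and at 14.6, 13.1 and 21.4 CPM in AP_OCA, with 9.30 CPM in replicate 2, which lay inside the AP range. The fold change was 0.71 ± 0.22 in 7 libraries (adjusted p = 0.079) and 0.53 in 8.

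The lowest level was that of Ndufb2, 0.972, 1.08, 1.70 and 0.947 CPM in AP and 0.732, 1.35 and 4.51 CPM in AP_OCA, with 3.36 CPM in replicate 2. AP_OCA replicate 1 was the lowest of the 8 libraries and replicate 4 the highest. This gave a fold change of 0.39 ± 0.35 in 7 libraries and -0.10 without AP_OCA replicate 4. In the 7 libraries its value stood for 9 to 44 counts, and Braf, on the opposite strand, overlaps it over 146 nt at 7.73 CPM on average. On the same strand Gm42420 overlaps Ndufb2 over 145 nt and was listed at most at 0.00035 CPM. Ndufb8 and Ndufb9 also share 134 and 201 nt with same-strand genes, Gm20538 and Gm49356, both listed at 0 CPM.

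Ndufb8 was the most even of this group in AP_OCA, at 13.5, 13.5 and 13.6 CPM with 13.6 CPM in replicate 2, against 10.3, 12.01, 14.6 and 11.6 CPM in AP. AP replicate 3 lay above all 4 AP_OCA libraries. limma gave it a fold change of 0.16 ± 0.19, with a 95% interval of -0.26 to 0.57. Ndufb5, at 0.96 ± 0.31 (adjusted p = 0.087), had the highest fold change of the 10, with overlapping groups; Mrpl47 shares 616 nt of exon with it on the opposite strand. Ndufb4 lay at 6.06 to 10.6 CPM in AP and 11.7 to 20.4 CPM in AP_OCA, without overlap.

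Fold change followed transcript length among all genes, and complex I transcripts are short. Their median length was 763 nt, against 2651.5 nt for all tested genes. All tested genes were put in 5 equal classes by length. Of the 35, 30 fell in the shortest class (57 to 1445 nt), where the median fold change of all genes was 0.30 and that of the 30 was 0.72. In the next class the median was 0.05 over all genes and 0.39 over the 3 complex I genes, and in the middle class -0.08 over all genes and 0.33 over 2. Spearman's rho of fold change with length was -0.52 over the 35 genes and -0.34 over 10839 genes. With GC content it was -0.13 over the 35 and -0.36 over all. These describe genes that share libraries, and genes are not independent replicates.

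**Figure D4:**
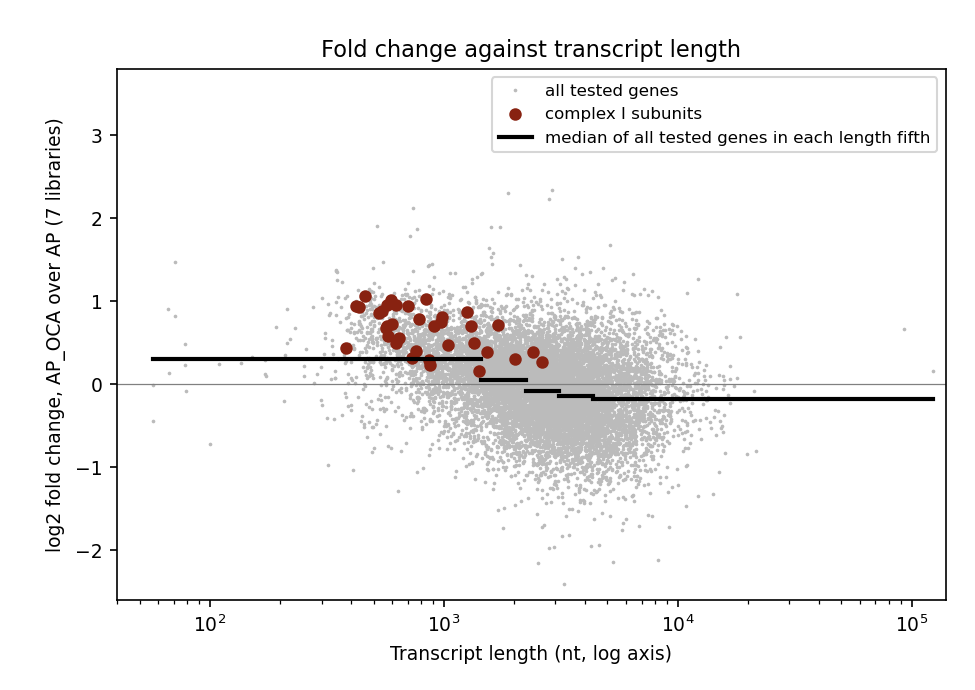
log2 fold change in 7 libraries against transcript length (nt, log axis) for all tested genes (grey) and the complex I genes (red), with the median of all tested genes in each of 5 equal length classes as a black bar. The bars step down from 0.30 in the shortest class, and 30 of the 35 red points lie in that class.

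After each library's trend on length and GC content was removed, the median of the 35 genes went from 0.71 to 0.35 in 7 libraries. In 8 libraries it went from 0.74 to 0.36. In 7 libraries 33 of 35 stayed above 0, against 49.9% of all genes, the exceptions being Ndufb3 at -0.24 and Ndufb8 at -0.01. Over the 34 without Ndufa4 the median went from 0.71 to 0.34. None of the 35 passed, against 0.386% of all genes that were higher, and 16 of 35 were higher at an unadjusted p under 0.05, against 9.43%. Ndufa4 moved to 0.35 (adjusted p = 0.212). Ndufa13, with a longer and GC-rich transcript (1251 nt, 60.4% GC), stayed at 0.87 (adjusted p = 0.058). Without AP_OCA replicate 4 as well, the median was 0.21.

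The mitochondrially encoded subunits complete the membrane arm, and 6 of their 7 genes were tested. None passed in 7 libraries, and 2 were higher at an unadjusted p under 0.05, against 11.8% of all genes. The fold change was above 0 in 6 of 6, against 50.0% of all genes, and the median was 0.86. AP replicate 3 was low in these genes. With mt-Nd1 the AP libraries gave 382, 473, 133 and 388 CPM, AP_OCA gave 463, 528 and 432 CPM, and AP_OCA replicate 2 gave 588 CPM. Without AP replicate 3 the median of the 6 was 0.31, and with the length and GC trend removed it was 0.07.

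Of the long ones, mt-Nd1 had a fold change of 0.60 ± 0.38, mt-Nd2 0.61 ± 0.61, mt-Nd4 0.83 ± 0.61 and mt-Nd5 0.89 ± 0.52, with adjusted p-values of 0.348, 0.563, 0.426 and 0.323. In all 4 the groups overlapped. mt-Nd6, the one subunit encoded on the opposite strand of mitochondrial DNA, stood at 71.5, 100.4, 20.9 and 54.98 CPM in AP and at 144, 181 and 333 CPM in AP_OCA, with 216 CPM in replicate 2. It was the one mitochondrial gene of the 6 whose groups did not overlap, with AP_OCA higher, against 11.1% of all genes. The log2 difference came to 1.91 ± 0.53 (adjusted p = 0.083), 1.47 without AP replicate 3 and 0.82 with the trend removed. mt-Nd3 was near the filter, at 0.494, 0.854, 0.128 and 0.947 CPM in AP and 0.561, 2.28 and 9.30 CPM in AP_OCA. This low gene and mt-Nd6 were the 2 higher at an unadjusted p under 0.05, against 11.8% of all genes. mt-Nd4l, at most 0.53 CPM, was not tested.

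The other genes of the respiratory chain and those that build or feed complex I were counted in the same way. None of the 18 assembly factors passed (2 were higher at an unadjusted p under 0.05), and their median fold change was 0.19, or -0.09 with the trend removed. The 4 genes of complex II, succinate dehydrogenase, had a median of 0.15 with none passing at either threshold. The 15 genes of pyruvate dehydrogenase and the citric acid cycle, which make NADH, had 0.29 with none passing and 4 higher at an unadjusted p under 0.05. Uqcrq was the 1 of 9 complex III genes that rose. Cox6c was the 1 of 10 for complex IV and Atp5o the 1 of 15 for ATP synthase. Over all genes 0.854% were higher at this threshold. The medians of these 3 complexes were 0.72, 0.68 and 0.62, and 0.09, 0.21 and 0.37 with the trend removed. At an unadjusted p under 0.05, 5, 8 and 12 of their genes were higher, against 11.8% of all genes. The groups did not overlap, with AP_OCA higher, in 4, 7 and 9 of these genes, against 11.1%. The same held for 1 assembly factor, 1 complex II gene and 5 genes of pyruvate dehydrogenase and the citric acid cycle. Every AP_OCA library lay below every AP library in 2 ATP synthase genes, against 12.1% of all genes. That was also so for 2 genes of pyruvate dehydrogenase and the citric acid cycle. Fold changes were above 0 in 7 of 9 complex III, 10 of 10 complex IV and 13 of 15 ATP synthase genes, against 50.0% of all genes. With the trend removed the 3 genes no longer passed (adjusted p = 0.189 for Uqcrq, 0.145 for Cox6c and 0.077 for Atp5o), while Atp5g1 of ATP synthase did (adjusted p = 0.049). Mitochondrial ribosomal proteins had a median of 0.47 (2 of 76 rose, Mrpl30 and Mrpl35) and cytosolic ones 0.50 (14 of 83 rose). With the trend removed their medians were 0.27 and 0.17, and 0 and 2 genes were higher, against 0.386% of all genes. With the trend kept, 34 of 76 and 57 of 83 were higher at an unadjusted p under 0.05. In 25 and 64 the groups did not overlap, with AP_OCA higher. No difference between these lists and the 35 genes was tested.

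Among 10 tested regulators of mitochondrial biogenesis none rose (2 were higher at an unadjusted p under 0.05, against 11.8% of all genes). In the same list 1 fell, against 1.59% of all genes. The gene that fell was Pprc1, a coactivator related to PGC-1, with a fold change of -0.84 ± 0.17 (adjusted p = 0.028). With the trend removed it was -0.45 and no longer passed (adjusted p = 0.092). The median of the 10 was -0.01. In 4 of the 10 every AP_OCA library lay below every AP library, against 12.1% of all genes. In 1 every AP_OCA library lay above, against 11.1%. Ppargc1a, which encodes PGC-1 alpha, was under the filter, at 1.69, 1.31, 1.60 and 0.0120 CPM in AP and 0.407, 0.530 and 1.01 CPM in AP_OCA, with 0.121 CPM in replicate 2. Ppargc1a was not compared because its mean did not reach the filter of 1 CPM. The floor of 3 counts lay at 0.206 to 0.313 CPM in the 7 libraries. Of complex I genes outside the symbol rule, Ndufab1, the acyl carrier protein, had a fold change of 0.26 ± 0.20 (adjusted p = 0.442) and Ndufb1-ps 0.57 ± 0.29 (adjusted p = 0.232).

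**Figure D5:**
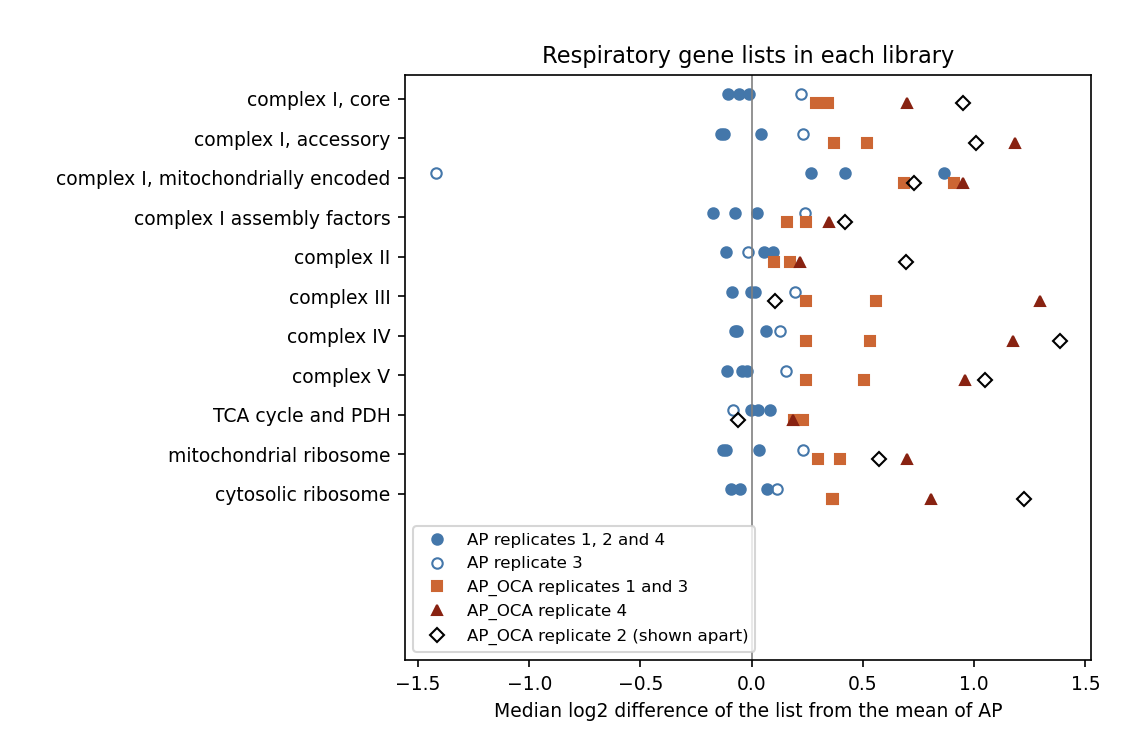
Median log2 difference of each gene list from the mean of AP, 1 point per library. The accessory subunits of complex I spread from 0.37 in AP_OCA replicate 1 to 1.18 in AP_OCA replicate 4, and the mitochondrially encoded subunits are lowest in AP replicate 3, at -1.42.

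Promoters of the members were read from RefSeq (GRCm38.p6, 250 nt before to 50 nt after a start), which gave 34 windows for 32 of the 35 genes. They were searched on both strands, each motif on its own, for 5 short motifs that mark factors known to act on respiratory genes or on promoters in general. AAGATGGC, the core of the YY1 motif, was in 7 of 34 windows (20.6%), against 2.75% of all 32851 windows of this length. These 7 genes were Ndufc1, Ndufa9, Ndufa3, Ndufs7, Ndufs6, Ndufs4 and Ndufb8, with fold changes from 0.16 (Ndufb8) to 0.93 (Ndufa3). The other 4 motifs were CCGGAAG of ETS factors in 4 windows (11.8% against 8.86%), GGGCGGGG of SP and KLF factors in 6 (17.6% against 17.6%), TATAAA of the TATA box in 5 (14.7% against 13.6%) and GCGCATGCG of NRF1 in 2 (5.88% against 1.75%). A match is a run of letters and not a measured site. AAGATGGC begins 22 nt past the start in the Ndufa3 window and 38 nt past it in that of Ndufb8. It contains ATG, and whether this is the start codon was not tested.

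The 3 windows printed here are those of the gene that rose and of the genes at either end of the range among those with AAGATGGC. Capitals mark GGGCGGGG and AAGATGGC on the strand of the gene; the TATAAA in the Ndufa3 window is left in lower case. They lie at chr6:11907401-11907700 on the minus strand for Ndufa4, at chr7:3617123-3617422 on the plus strand for Ndufa3 and at chr19:44555393-44555692 on the minus strand for Ndufb8.
Ndufa4: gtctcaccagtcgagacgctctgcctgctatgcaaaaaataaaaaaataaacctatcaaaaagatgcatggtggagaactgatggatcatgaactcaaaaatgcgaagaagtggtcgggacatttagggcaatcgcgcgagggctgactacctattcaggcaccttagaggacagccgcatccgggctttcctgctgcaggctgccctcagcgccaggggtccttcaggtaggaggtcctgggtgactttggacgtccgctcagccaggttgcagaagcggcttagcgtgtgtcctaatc
Ndufa3: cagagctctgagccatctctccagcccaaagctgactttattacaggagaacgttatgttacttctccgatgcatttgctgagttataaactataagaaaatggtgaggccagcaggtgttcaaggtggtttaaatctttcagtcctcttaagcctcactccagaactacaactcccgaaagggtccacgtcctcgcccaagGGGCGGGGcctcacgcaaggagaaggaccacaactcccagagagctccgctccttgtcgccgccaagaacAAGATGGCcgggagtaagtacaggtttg
Ndufb8: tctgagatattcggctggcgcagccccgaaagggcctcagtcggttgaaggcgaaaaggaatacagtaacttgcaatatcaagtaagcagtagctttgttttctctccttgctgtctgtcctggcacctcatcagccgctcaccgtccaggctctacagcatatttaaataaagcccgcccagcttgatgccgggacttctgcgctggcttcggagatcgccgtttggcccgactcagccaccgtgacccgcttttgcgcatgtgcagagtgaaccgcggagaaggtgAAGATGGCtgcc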

How the data were processed

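The deposited table holds log2 values, which the authors' columns share in their highest value and nearly in their linear sum, so the libraries were read as quantile normalised; the lowest value is the log2 of 0.01. Per the labels, total RNA went into SMARTER mRNA libraries and the build is mm10; the aligner, counter, annotation and strandedness are not given in the sources used here. Columns were matched to samples by title. Values were returned to the linear scale, less the 0.01, and brought to a sum of 1000000 per library (CPM); the planned test had assumed linear values. Those averaging 1 CPM or more were tested on log2(CPM + 1) with limma 3.58.1 (R 4.3.3; trend, robust moderation, Benjamini-Hochberg at 0.05), on 7 libraries and on all 8, after a check on simulated data. Lengths, GC content, copies (blastn 2.17.0, at least 95% over 200 nt) and overlaps came from GENCODE M21, which matched 53749 listed genes and 35 of 35 members. The length and GC trend was removed per library with natural splines of 5 degrees of freedom each. Genes printed with every library's value were the 6 core subunits, Ndufa4, any that passed and the 3 of lowest p in each accessory group. So were mt-Nd1, mt-Nd6 and Ppargc1a, while mt-Nd3 was printed for 7 libraries and the other mitochondrial subunits by fold change or highest value. Ndufb2, Ndufb8 and other members were named after their values were seen, for level or range. Of the genes matching the symbol rule, 1 is not reported here and is left out of every count and median of the members. Members and lists were chosen with earlier results of these data known. Steps in the low values gave the counts quoted; they cover counting error only.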

Additional observations from a re-analysis of the deposited data

Results flagged for a closer look

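Ndufa5 in AP replicate 3, at 8.27 CPM, stood apart from the other 3 AP libraries: on the log2(CPM + 1) scale, its gap to the nearest of them was 0.844 of the group's range, above Dixon's 95% critical value for 4 samples. It was 1 such case in 70 groups of 4 libraries examined, and chance gives about 1 in 20.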

How the results depend on the processing

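In 7 libraries the number of members that were higher was 1 in the fit reported (0.854% of all genes higher). It was also 1 with a pseudocount of 0.1 CPM (0.45%), with median centring (0.863%) and on the deposited values without rescaling (0.34%). It was 2 with a pseudocount of 5 CPM (1.39% of all genes higher) and 2 with a minimum mean of 5 CPM (33 members tested; 1.8%). It was 0 without a filter on low values (0 of 21426 genes) and 0 without limma's trend (0.0367%). With the length and GC trend removed it was 0 without the replicate block (0.386%) and 0 with it (0.0826%). It was 20 with limma's quality weights per library (7.11%). With libraries left out in turn it was 17 without AP_OCA replicate 1 (3.71%) and 1 without AP_OCA replicate 4 (0.295%). Leaving out any other library gave 0, and few genes were higher in those fits (0.0183% to 0.0366%). With the trend also removed it was 2 without AP_OCA replicate 1 (1.38%). Leaving out any other library then gave 0 (0.0275% to 0.286%).

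The members' median in 7 libraries, 0.71, was 0.35 with the trend removed, with or without the replicate block, and 0.40 to 0.87 with libraries left out, lowest without AP_OCA replicate 4. With the trend removed it was 0.34, 0.35, 0.38 and 0.33 without AP replicates 1 to 4, and 0.42, 0.40 and 0.21 without AP_OCA replicates 1, 3 and 4.

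With all 8 libraries the number was 0 (23 members at an unadjusted p under 0.05). It was 16 with quality weights (4.25%), 1 without AP_OCA replicate 2 (0.854%) and 0 under the other alternatives run. Under those 0% of all genes were higher, or 0.386% with the trend removed and AP_OCA replicate 2 left out. The median, 0.74, was 0.36 with the trend removed, with or without the replicate block. With libraries also left out it was 0.33, 0.40, 0.39 and 0.36 without AP replicates 1 to 4, and 0.405, 0.35, 0.45 and 0.28 without AP_OCA replicates 1 to 4.

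Whether same-numbered libraries were paired is not known. Their deviations from the group means, AP_OCA replicate 2 included, correlated at -0.17, 0.03, 0.12 and -0.03 for replicates 1 to 4. Libraries of different number correlated at -0.17 to 0.17. So few values cannot exclude pairing. The replicate block gave 8 members higher in 7 libraries (2.16%) and 0 in 8.

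Over the 16 named members, 353 alternative values in 7 libraries kept direction and call, 29 gained and 16 lost the call, and 1 reversed. All 16 losses were of Ndufa4, the 1 member called in the fit reported, and the others had no call to lose. In 8 libraries, where no member was called in the fit reported, 412 kept both, 11 gained the call and 8 reversed. In 7 libraries the reversed value was -0.0111 for Ndufs1 with quality weights. In 8 libraries Ndufb6 was -0.0113 with the trend removed, with or without the replicate block. With libraries also left out it was -0.0847 and -0.058 without AP replicates 1 and 3, and -0.1333, -0.0477 and -0.1336 without AP_OCA replicates 1, 3 and 4. Ndufa1 was -0.0536 with the trend removed and AP_OCA replicate 4 left out.

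The cause of these changes was not tested. Removing the trend while leaving out libraries was chosen after seeing the data. Read totals are unknown, and low genes such as Ndufb2 rest on few counts.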
